A study of Trametes versicolor with 3 samples.

Results

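Laccases of the white-rot fungus Trametes versicolor were followed in mycelium grown for 9 days on 3 media. Gene models were taken as laccases where the description in the deposited tables, which is the name of the best protein database match, contained laccase or multicopper oxidase, and where it did not name a ferroxidase, Fet3, ascorbate or iron transport. This gave 5 of the 11480 gene models with at least 1 read: laccase B precursor (Trave1_138531), laccase 5 (Trave1_146502), laccase I (Trave1_68293), laccase-4 (Trave1_115565) and a gene model described only as laccase (Trave1_118453). The rule used names alone and no measured value, but it was set with earlier results of these data known.

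Cultures of one collection strain were grown on a poplar medium, on a medium with glucose as its carbon source, or on PDA, which usually stands for potato dextrose agar and is a rich culture medium for fungi. The mycelial mat had reached 4 cm in each. The labels name PDA as the growth protocol of all 3 samples, so the media were taken from the source names, and how the poplar medium was made is not given in the labels. Each medium was represented by 1 library, so every difference below describes these libraries, has no replicate check and carries no p-value. The libraries are of whole mycelium, so fewer hyphae with a transcript and less of it per hypha cannot be told apart. Depth was close between libraries, with 2.80 M unique reads on poplar, 2.678 M on glucose and 2.851 M on PDA.

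Laccases are secreted blue multicopper oxidases. A copper site at the surface of the fold takes electrons from phenols, and a copper cluster passes them to oxygen, which is reduced to water. In white-rot fungi laccases are known for oxidising phenolic parts of lignin, and with small diffusible mediators also its non-phenolic parts, and for roles in pigment formation, detoxification of phenols and hyphal development. In Trametes they are known to respond to copper and to aromatic compounds. The coding lengths of the 5 gene models lay between 1560 and 1584 bases, so reads compare closely between members. All 5 carried the Gene Ontology terms for lignin metabolic process and for oxidation of diphenols with oxygen, and all 5 had the KEGG enzyme entry of laccase. That entry was found in 10 gene models in all, and the 5 others were TvLac6, TvLac7, a hypothetical protein and 2 Fet3 gene models. TvLac6 (Trave1_37458), TvLac7 (Trave1_47584) and the hypothetical protein (Trave1_133590) are described beside the 5 laccases as additional gene models, and this addition was made after the files had been seen.

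Laccase B precursor had the most abundant laccase transcript on each medium. It measured 77.5 RPKM on poplar (95% exact Poisson interval 69.4 to 86.2), 70.7 RPKM on glucose (62.9 to 79.2) and 57.0 RPKM on PDA (50.2 to 64.5), where RPKM is the read count scaled both to gene model length in kilobases and to library depth. Behind these levels stood 339 reads on poplar, 296 on glucose and 254 on PDA, and these intervals, like all below, cover counting error only. The level was alike on poplar and glucose and lower on PDA, with intervals of poplar and PDA that did not overlap. Its RPKM exceeded that of 81.5% of the gene models listed on poplar, 79.8% on glucose and 77.3% on PDA. Coverage, the share of the gene model under reads, was 99.4% on poplar, 97.3% on glucose and 97.8% on PDA.

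Laccase I had the widest range over the media of the 5 members. It measured 7.56 RPKM on poplar (5.20 to 10.6), 37.1 RPKM on glucose (31.5 to 43.4) and 4.95 RPKM on PDA (3.10 to 7.49), from 33 reads on poplar, 155 on glucose and 22 on PDA. The glucose library stood apart from both others, which overlapped in their intervals. On glucose it was the second laccase by level, above laccase 5, and laccase B precursor exceeded it there by 1.91 times in RPKM, against 10.3 times on poplar and 11.5 times on PDA. Its coverage was 60.8% on poplar, 94.9% on glucose and 49.5% on PDA.

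Laccase 5 measured 24.9 RPKM on poplar (20.5 to 30.1), 25.1 RPKM on glucose (20.6 to 30.4) and 11.8 RPKM on PDA (8.84 to 15.4), from 110, 106 and 53 reads in that order. It was at the same level on poplar and glucose and lower on PDA, without overlap of the intervals. Laccase-4 measured 13.0 RPKM on poplar (9.86 to 16.9), 14.1 RPKM on glucose (10.7 to 18.2) and 7.85 RPKM on PDA (5.47 to 10.9), in the same order of media as laccase 5 but with intervals that overlapped. The gene model described only as laccase was the least abundant member, at 4.74 RPKM on poplar (2.93 to 7.24), 7.78 RPKM on glucose (5.35 to 10.9) and 3.76 RPKM on PDA (2.19 to 6.03). It rested on 21 reads on poplar, 33 on glucose and 17 on PDA, and its 3 intervals overlapped. On PDA all 5 laccases had their lowest level.

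**Figure D1:**
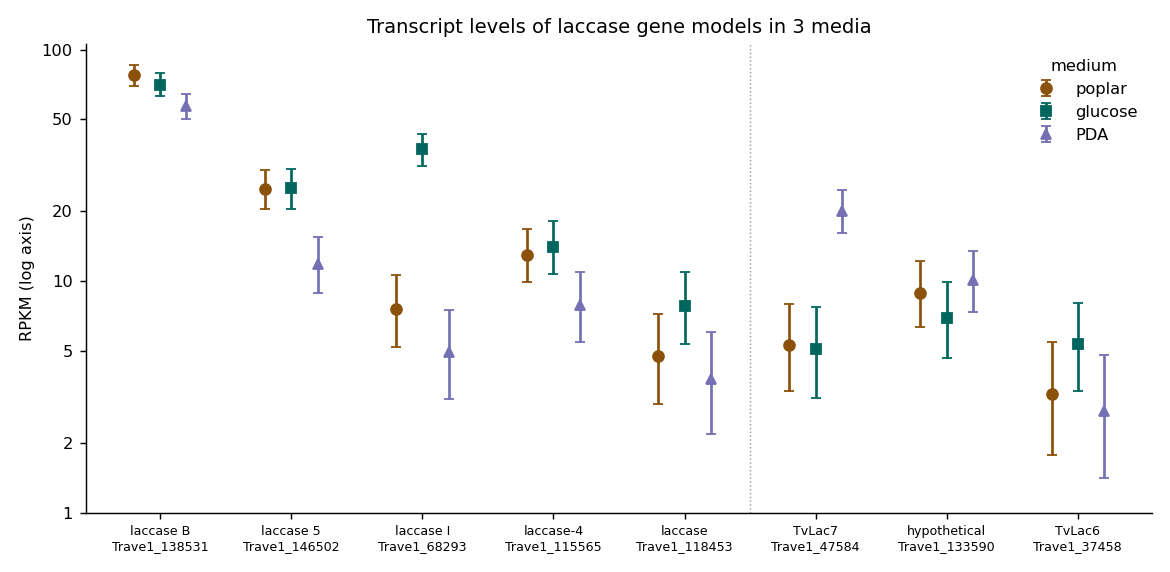
RPKM on a log axis for the 5 laccases (left of the dotted line) and the 3 additional gene models with the KEGG laccase entry (right of it), with poplar, glucose and PDA side by side; each point is 1 library and bars are 95% exact Poisson intervals of the read count. Laccase I stands at 37.1 RPKM on glucose against 7.56 on poplar and 4.95 on PDA, and TvLac7 is highest on PDA at 20.2 RPKM.

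The additional gene models did not share one order of media. TvLac7, a laccase by its database name, measured 5.31 RPKM on poplar (3.36 to 7.96), 5.07 RPKM on glucose (3.14 to 7.74) and 20.2 RPKM on PDA (16.2 to 24.8), from 23, 21 and 89 reads in that order. Its interval on PDA lay above both others, whereas laccase 5 had its lowest level there, and its coverage there was 91.3%, against 44.1% on poplar and 44.5% on glucose. TvLac6 measured 3.25 RPKM on poplar, 5.34 RPKM on glucose and 2.73 RPKM on PDA, from at most 22 reads, and all its intervals overlapped. The hypothetical protein measured 8.89 RPKM on poplar, 6.91 RPKM on glucose and 10.1 RPKM on PDA, also with overlapping intervals. It lacked the lignin term that TvLac6 and TvLac7 carried.

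Among these 8 gene models the order of levels was firm only at the top. On poplar, laccase B precursor, laccase 5 and laccase-4 followed each other, with no overlap between the first and the second or between the second and the third. From laccase-4 down each gene model overlapped with the next. On glucose the first 4 places, laccase B precursor, laccase I, laccase 5 and laccase-4, were separated by their intervals, and the rest were not. On PDA laccase B precursor was followed by TvLac7 and then laccase 5, each without overlap, and from laccase 5 down neighbours overlapped.

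Between the poplar and glucose libraries the laccases were mostly alike, apart from laccase I. A gene was called higher or lower where the ratio of RPKM plus 1 reached 2. Of the 5 laccases, 0 were higher on poplar, where 8.1% of the 10636 measured gene models were, and 1 was lower, where 8.31% were. Measured means at least 1 RPKM in either library. With 5 members a count of 1 cannot be set apart from such a background. Laccase I was the lower one, 4.91-fold lower on poplar in RPKM (3.35 to 7.38, exact conditional interval of the counts), and 1.49% of measured gene models had a lower log2 ratio. Laccase B precursor had a poplar to glucose ratio of 1.10 (0.935 to 1.28), laccase 5 of 0.993 (0.753 to 1.31) and laccase-4 of 0.924 (0.631 to 1.35). For these 3 the intervals leave out a 2-fold difference in either direction as far as counting error goes. The ratio of the gene model described only as laccase was 0.609 (0.335 to 1.08), which does not leave out a lower level on poplar by 2-fold. The median log2 ratio of the 5 was −0.11, beside 0.08 over all measured gene models.

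Between the poplar and PDA libraries all 5 laccases had a ratio above 1, as did 6084 of the 10506 measured gene models. The intervals of laccase I and of the gene model described only as laccase held 1. Of the 5 laccases, 1 passed 2-fold. On this side 10.8% of the 10506 measured gene models were higher on poplar and 5.11% lower, and 0 of the laccases were lower. Laccase 5 was 2.11-fold higher on poplar (1.51 to 2.99). Its log2 ratio of RPKM plus 1 was 1.02 and became 0.92 after median-of-ratios scaling and 0.83 with a pseudocount of 5, so that it was no longer called. Laccase-4 had a ratio of 1.66 (1.07 to 2.60), laccase I of 1.53 (0.864 to 2.75), laccase B precursor of 1.36 (1.15 to 1.61) and the gene model described only as laccase of 1.26 (0.632 to 2.54). The median log2 ratio was 0.52, beside 0.09 over all measured gene models. TvLac7 went the other way and was 3.80-fold lower on poplar (2.38 to 6.30), with 1.30% of measured gene models at a lower log2 ratio.

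Between the glucose and PDA libraries all 5 laccases again had a ratio above 1, as did 5332 of the 10487 measured gene models. Of the 5 laccases, 2 were called higher and 0 lower. Over the 10487 measured gene models 12.7% were higher on glucose and 6.52% lower. Laccase I was 7.50-fold higher on glucose (4.78 to 12.3), and 98.5% of measured gene models had a lower log2 ratio. Laccase 5 was 2.13-fold higher (1.52 to 3.02), close to the threshold, with a log2 ratio of RPKM plus 1 of 1.03 that became 0.84 with a pseudocount of 5. The gene model described only as laccase had a ratio of 2.07 in plain RPKM (1.12 to 3.96) but a log2 ratio of 0.88 once 1 RPKM was added, just under the threshold. Laccase-4 had a ratio of 1.79 (1.16 to 2.81) and laccase B precursor of 1.24 (1.05 to 1.47). The median log2 ratio was 0.88, beside 0.01 over all measured gene models. TvLac7 was 3.98-fold lower on glucose (2.45 to 6.75). The 3 comparisons were made from the same 3 libraries, so their values are not independent of each other.

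**Figure D2:**
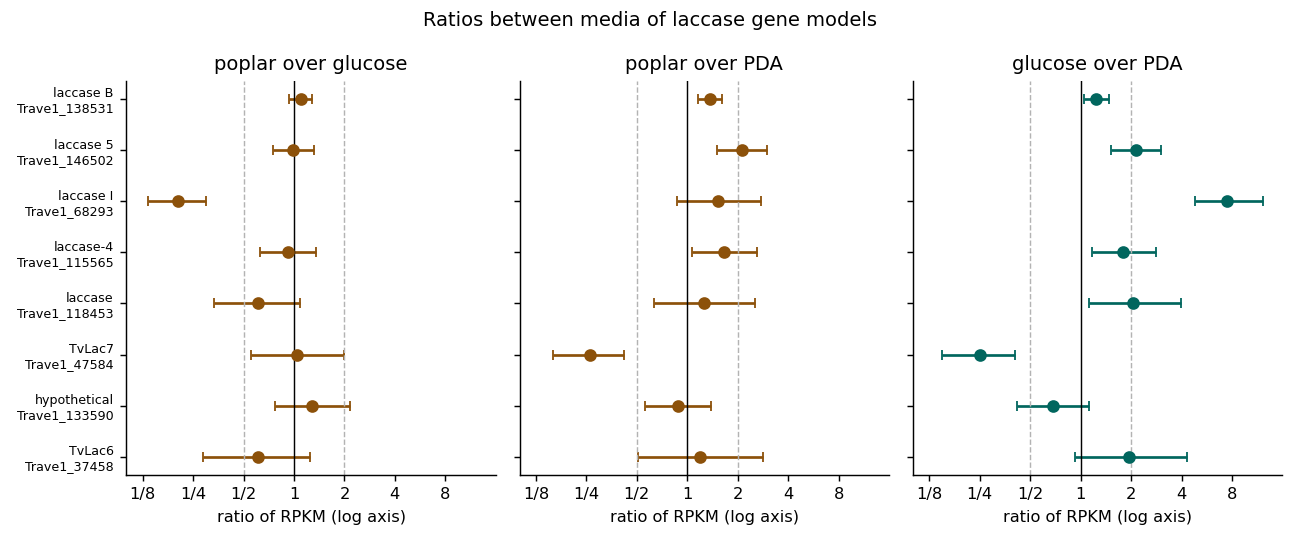
Ratios of RPKM on a log axis, poplar over glucose, poplar over PDA and glucose over PDA, for the 5 laccases and the 3 additional gene models; points are ratios between 1 library each and bars are 95% exact conditional intervals of the counts, with dashed lines at a 2-fold difference. Laccase I lies at 1/4.91 for poplar over glucose and at 7.50 for glucose over PDA, and TvLac7 is the 1 gene model whose intervals lie wholly below 1 in both comparisons with PDA.

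**Figure D3:**
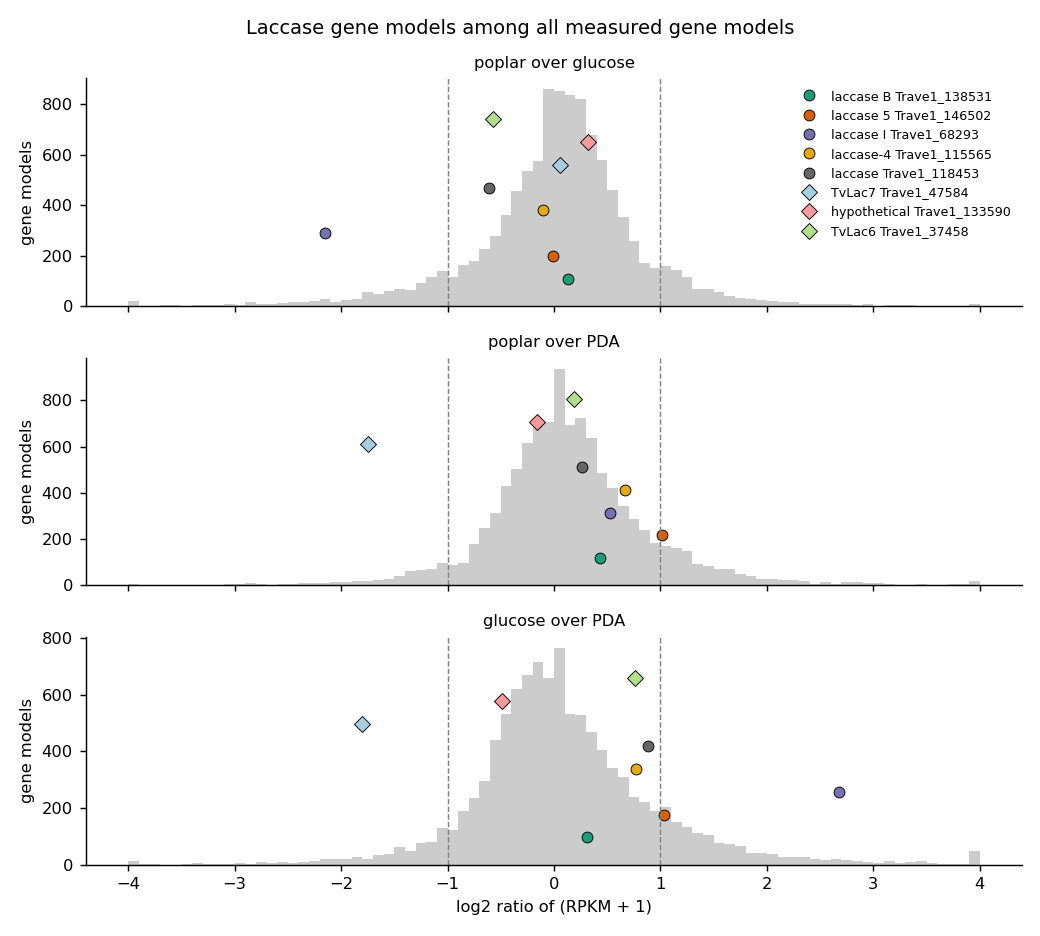
Log2 ratios of RPKM plus 1 over all measured gene models (grey histogram, values beyond 4 in either direction placed in the end bars) with the 5 laccases as circles and the 3 additional gene models as diamonds; the height of a symbol has no meaning and dashed lines mark 2-fold. Laccase I lies at −2.15 for poplar over glucose and 2.68 for glucose over PDA, in the tails, while laccase B precursor stays between 0.13 and 0.44 in the 3 comparisons.

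The summed level of the 5 laccases was highest on glucose. It came to 128 RPKM on poplar, 155 RPKM on glucose and 85.4 RPKM on PDA, or, in RPM, the same scale without gene length, to 200.0 RPM on poplar (184 to 217), 242 RPM on glucose (224 to 262) and 134 RPM on PDA (121 to 148). In summed reads poplar was 1.21-fold lower than glucose (1.08 to 1.36) and 1.497-fold higher than PDA (1.31 to 1.71), and glucose was 1.81-fold higher than PDA (1.60 to 2.06). The gap between poplar and glucose was not seen without laccase I, where the sums were 120 RPKM on poplar and 118 RPKM on glucose, with a ratio of summed reads of 1.02 (0.901 to 1.16). Without laccase I the sum on PDA was 80.4 RPKM, and poplar was still 1.49-fold above PDA (1.30 to 1.71). With TvLac6, TvLac7 and the hypothetical protein added, the sums of 8 gene models were 145 RPKM on poplar, 172 on glucose and 118 on PDA. The ratio of poplar to PDA in summed reads was then 1.23 (1.09 to 1.38).

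Within the 5 laccases the make-up of the reads differed on glucose. TvLac7 is not part of these shares. It had 23 reads on poplar, 21 on glucose and 89 on PDA, where the 8 gene models together had 636, 721 and 527. With TvLac7 counted, the make-up would therefore differ on PDA as well. Laccase B precursor held 60.5% of the 560 laccase reads on poplar (95% Clopper-Pearson interval 56.4 to 64.6), 45.6% of 649 on glucose (41.7 to 49.5) and 66.7% of 381 on PDA (61.7 to 71.4). Laccase I held 5.89% on poplar (4.09 to 8.18), 23.9% on glucose (20.7 to 27.4) and 5.77% on PDA (3.65 to 8.61). The shares of laccase I on poplar and PDA were alike although the summed levels differed. Laccase 5 held 19.6% on poplar, 16.3% on glucose and 13.9% on PDA, laccase-4 held between 9.09% and 10.2%, and the gene model described only as laccase between 3.75% and 5.08%. The intervals of these 3 overlapped between all media.

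**Figure D4:**
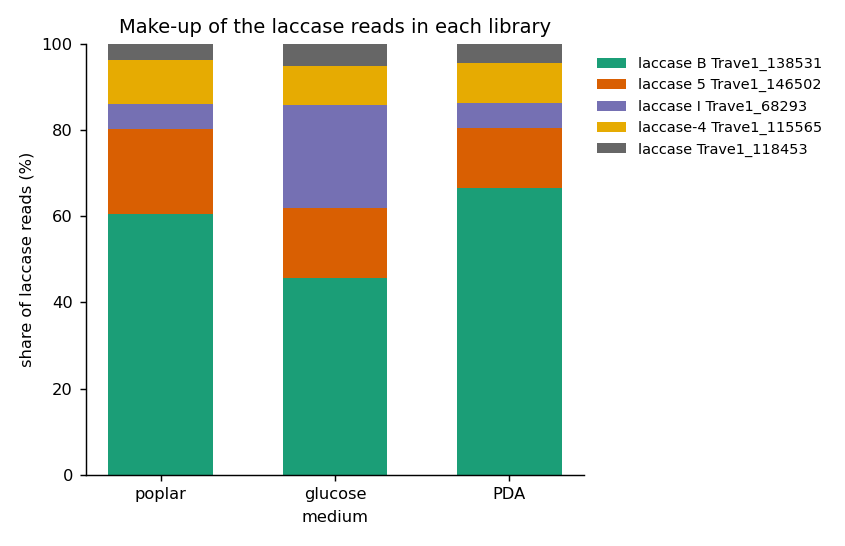
Share of the reads of the 5 laccases that each held, in percent, for the poplar, glucose and PDA libraries; 1 library per bar, stacked to 100%. Laccase I takes 23.9% on glucose against 5.89% on poplar and 5.77% on PDA, and laccase B precursor is the largest part on each medium.

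The gene models whose profile over the media was most like that of a laccase were sought by the largest of the 3 differences in log2 ratio, among 7303 others with at least 10 RPKM on some medium. Nearest to laccase I was a laminarinase, an enzyme that cleaves beta-glucan (Trave1_134991), with a largest difference of 0.10 and with 180 RPKM on poplar, 808 RPKM on glucose and 117 RPKM on PDA. It was followed by the hypothetical proteins Trave1_127923 (0.16) and Trave1_37062 (0.16). Nearest to laccase B precursor were ribulose-5-phosphate 3-epimerase of the pentose phosphate pathway (Trave1_158721), the hypothetical protein Trave1_146843 and a gene model described as galactose oxidase (Trave1_151572), at differences of at most 0.02. Nearest to laccase 5 were the hypothetical protein Trave1_54365, a galactokinase (Trave1_38010) and an alpha/beta-hydrolase (Trave1_121670), at differences of at most 0.05. A likeness over 3 libraries is a description, and the differences are smaller than the counting error of the laccases. Among the 8 gene models themselves, the most alike pair was the gene model described only as laccase and TvLac6, at 0.12, and the least alike was laccase I and TvLac7, at 4.48.

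Laccases need copper, which is loaded in the secretory pathway. Of the list of copper supply by description only 2 gene models were found. The uptake transporter of the CTR family (Trave1_30547), which in yeast brings copper into the cell, measured 249 RPKM on poplar, 106 RPKM on glucose and 230 RPKM on PDA. Its lowest level was on glucose, with poplar 2.35-fold higher than glucose (1.96 to 2.83) and glucose 2.17-fold lower than PDA (1.81 to 2.62). The other 2 gene models that KEGG names as copper transporters of this family stayed within 2-fold between all media. Trave1_26572 measured 49.9 RPKM on poplar, 49.2 RPKM on glucose and 41.1 RPKM on PDA, and Trave1_159875 measured 104 RPKM on poplar, 89.4 RPKM on glucose and 134 RPKM on PDA. Trave1_159875 also ranked lowest on glucose, with a glucose to PDA ratio of 0.665 (0.530 to 0.832). Its poplar to glucose ratio was 1.16, with an interval that held 1 (0.916 to 1.48). A difference past 2-fold on glucose was therefore seen for 1 transporter of 3. The copper chaperone TahA (Trave1_164609) stayed within 2-fold, at 452 RPKM on poplar, 416 RPKM on glucose and 356 RPKM on PDA.

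A wider search of the KEGG names, made after the values were seen, gave 12 copper genes. Of the 12 measured between poplar and glucose 2 were higher and 1 lower, of the 12 between poplar and PDA 2 were higher and 0 lower, and of the 11 between glucose and PDA 3 were higher and 1 lower. Over all measured gene models 8.1% were higher and 8.31% lower on poplar against glucose, 10.8% and 5.11% on poplar against PDA, and 12.7% and 6.52% on glucose against PDA, so these counts over so few genes are no result about copper genes as a group. The 2 counted as higher on poplar against PDA rested on few reads: Trave1_162687 had 2 reads on poplar and 0 on glucose and PDA, and Trave1_41851 had a ratio of 2.21 with an interval that holds 1 (0.782 to 7.08). A gene model named by KEGG as a copper-fist transcription factor (Trave1_75142), a kind of regulator that in yeast switches copper genes, measured 48.8 RPKM on poplar, 63.5 RPKM on glucose and 24.3 RPKM on PDA. It was 2.61-fold higher on glucose than on PDA (2.12 to 3.23), and its poplar to PDA ratio was 2.01 in plain RPKM (1.62 to 2.50) but just under the threshold once 1 RPKM was added, at a log2 ratio of 0.97. The copper P-type ATPase CtaA (Trave1_148830), of a family whose yeast member loads copper into secreted oxidases, measured 137 RPKM on poplar, 152 RPKM on glucose and 100.2 RPKM on PDA, within 2-fold throughout. The 2 gene models named as copper homeostasis proteins had the order glucose above poplar above PDA, as did Trave1_75142 and CtaA. Trave1_146938, named by KEGG as an assembly protein of cytochrome c oxidase, also had it, but all its ratio intervals held 1. By rank alone every laccase but laccase B precursor had this order too. Among those laccases, only laccase I had a poplar to glucose interval that left out 1, and its poplar to PDA interval held 1. The other copper genes of the search did not have this order. These were the CTR transporters Trave1_30547, Trave1_159875 and Trave1_26572, the chaperone TahA, and Trave1_29236, Trave1_143265 and Trave1_162687. The share of all measured gene models with this order was not counted, so it is no result about copper genes or laccases. Trave1_101031 measured 16.7 RPKM on poplar, 30.4 RPKM on glucose and 7.95 RPKM on PDA. Trave1_41851 measured 11.5 RPKM on poplar, 25.1 RPKM on glucose and 5.24 RPKM on PDA, from 13, 27 and 6 reads in that order.

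Fet3 is a multicopper oxidase of the same fold that in yeast oxidises iron for uptake through the permease Ftr1, and it was left out of the laccases by name. The Fet3 gene model Trave1_73706 measured 7.31 RPKM on poplar, 13.4 RPKM on glucose and 6.19 RPKM on PDA, and Trave1_66247 measured 3.22 RPKM on poplar, 9.50 RPKM on glucose and 3.53 RPKM on PDA. Both had their highest level on glucose. Every laccase but laccase B precursor ranked highest there too, but of these only laccase I had a poplar to glucose interval that left out 1. Trave1_66247 was 2.95-fold lower on poplar than on glucose (1.67 to 5.48). The 2 share 1 best database match, and coverage of Trave1_73706 was 36.7% with 63 reads on glucose, where laccase-4 reached 78.4% with 59 reads, so their separate levels are uncertain. Of the 12 iron uptake gene models, which include zinc and iron permeases, 0 were higher and 3 lower on poplar against glucose, with a median log2 ratio of −0.72, beside 8.1% higher, 8.31% lower and a median of 0.08 over all measured gene models. Against PDA 0 were higher and 1 lower on poplar, beside 10.8% and 5.11% of all. On glucose against PDA 2 were higher and 0 lower, beside 12.7% and 6.52% of all, and the 2 were the Fet3 gene models whose separate levels are uncertain. Trave1_66247 was also 1 of the 3 lower on poplar than on glucose. Counts over so few genes are no result about iron uptake genes as a group. The iron permease Trave1_170164 was 5.77-fold lower on poplar than on glucose (3.92 to 8.75), at 6.63 RPKM against 38.2 RPKM, and 2.98-fold lower than on PDA (1.97 to 4.63), where it measured 19.7 RPKM. The KEGG entries of Trave1_170164 include a siderophore-iron symporter, another kind of iron transporter, so its name does not place it with Fet3. FTR1 (Trave1_73708), which KEGG names a high-affinity iron transporter, measured 19.2 RPKM on poplar, 33.1 RPKM on glucose and 23.9 RPKM on PDA. The zinc and iron permease Trave1_61891 had the highest mean level of the list, at 111 RPKM on poplar, 85.4 RPKM on glucose and 94.1 RPKM on PDA. KEGG names it, like the other zinc and iron permeases of the list, as a zinc transporter.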

How the data were processed

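RNA of mycelium from 3 cultures was sequenced on an Illumina instrument, with 1 library for each medium, after selection of polyadenylated RNA per the labels. The deposited counts are reads that the authors assigned uniquely to a gene model, per the file headers, and they sum to the total in each header. The deposited RPKM values are scaled to that total, as recomputing each value showed. The deposited coverage is a percent of gene model length, and nearly all lengths were multiples of 3 and were read as coding length. Cufflinks 2.0.1 appears in the submitters' processing notes, with no role given. The aligner, like the genome build, is not given in the sources used here. Unique assignment leaves close paralogs, the laccases among them, uncertain, and strandedness is not given either, so antisense reads cannot be told apart.

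A gene model absent from a table was given 0 reads. Ratios are log2 of RPKM plus a pseudocount of 1, with a minimum of 1 RPKM in either library and a 2-fold threshold, computed over all gene models. Intervals are exact 95% intervals of the counts and cover counting error only, since no medium had a replicate. PCR copies were not marked, so the intervals may be too narrow even for that error. With 1 library per medium no test was made. Python 3.11.15 with scipy 1.17.1 was used, and the calculation was tested on simulated data. Alternatives were other pseudocounts, scaling, minimum levels, thresholds and member definitions.

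The members and lists were chosen with earlier results of these data known. Named genes were all laccases, the 3 gene models nearest in profile to laccase B precursor and to each laccase past 2-fold, and from each of 5 related lists the gene of highest mean RPKM and that of the largest ratio of at least 2-fold and 10 RPKM in each comparison, with lists of up to 5 genes in full. FTR1, the second Fet3 gene model, the copper and tyrosinase genes found through KEGG and the 3 additional gene models were chosen after their values were seen.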

Additional observations from a re-analysis of the deposited data

How the results depend on the processing

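No paired analysis was possible because each medium had 1 library. Laccase I stayed past 2-fold between poplar and glucose and between glucose and PDA with pseudocounts of 0.1 and 5 and after median-of-ratios scaling; with a pseudocount of 5 its log2 ratios were −1.75 and 2.08, since the pseudocount adds to small values. Laccase 5 rested on the threshold: between poplar and PDA the count of laccases called higher was 0 with a pseudocount of 5 and 0 after median-of-ratios scaling, and between glucose and PDA it was 1 with a pseudocount of 5. At a 1.5-fold threshold 2 laccases were lower on poplar than on glucose, 2 higher on poplar than on PDA and 4 higher on glucose than on PDA, beside 15.1%, 21.4% and 22.4% of all measured gene models. With a pseudocount of 0.1 the count between glucose and PDA was 3, through the gene model described only as laccase. With the KEGG laccase entry in place of the names, 1 of 8 gene models became lower on poplar and 1 on glucose against PDA, which was TvLac7. The background was 5.11% and 6.52%. With Fet3 included, 2 of 10 were lower on poplar than on glucose and 4 higher on glucose than on PDA, beside 8.31% and 12.7% of all measured gene models. The Fet3 gene models that added to these counts have uncertain separate levels. Without laccase B precursor the log2 ratio of summed RPKM was −0.74 for poplar over glucose, 0.83 for poplar over PDA and 1.57 for glucose over PDA, against −0.28, 0.58 and 0.86 with it. With the KEGG entry it was 0.29 for poplar over PDA (0.28 with Fet3) and 0.54 for glucose over PDA (0.61 with Fet3). No value changed its direction under these alternatives among the laccases called. Depth limits the gene model described only as laccase most among the laccases: from 21 and 17 reads, its poplar to PDA interval ran from 0.632 to 2.54.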

Other observations

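Tyrosinases are copper enzymes that oxidise phenols as laccases do, and few reads fell on them. The 1 gene model described as tyrosinase, Trave1_20071, had 3 reads on poplar, 13 on glucose and 5 on PDA, and was 4.53-fold lower on poplar than on glucose (1.24 to 24.8, exact conditional interval of the counts). Of the 4 gene models that KEGG names tyrosinase, a search added after the values were seen, the highest level was 5.22 RPKM, of Trave1_113862 on poplar, from 16 reads, close to the level of the least abundant laccase, Trave1_118453, at 4.74 RPKM there.

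The 11 gene models listed for secretory folding by description each stayed within 2-fold between all media, as did 83.6% of all measured gene models on poplar against glucose, 84.1% on poplar against PDA and 80.8% on glucose against PDA. KEGG names 2 of the 11, Trave1_116568 and Trave1_42105, as subunits of the mitochondrial inner membrane protease, which is not part of the secretory pathway that laccases pass through. Protein disulfide isomerase Trave1_144497, which forms disulfide bonds in the endoplasmic reticulum and had the highest mean level of this list, measured 674 RPKM on poplar, 952 RPKM on glucose and 827 RPKM on PDA. Of the quinone reductase list only 2 gene models were found, both within 2-fold. Quinone oxidoreductase Trave1_156439 measured 71.9 RPKM on poplar, 70.8 RPKM on glucose and 76.6 RPKM on PDA. The other, Trave1_21540, is described as an assembly protein of respiratory complex I and entered by the wording of its description, and it measured 30.8 RPKM on poplar, 30.2 RPKM on glucose and 18.5 RPKM on PDA.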
